A study of Mus musculus with 36 samples.

Results

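The data describe the regrowing mouse liver between day 3 and day 7 after partial hepatectomy (PHx), the surgical removal of 70% of the liver. The 10 libraries were chosen by their titles, 5 livers labelled day 3 and 5 labelled day 7, out of 36 liver and quadriceps muscle libraries in the whole study. All came from adult male C57BL6/J mice, 12 to 14 weeks old, and the operation was the same in both groups, so that, by their labels, the groups differ only in time after surgery, and no sham mice enter the contrast. Per its title, the study was about Yap1 in the liver, a co-activator of growth genes, in relation to systemic catabolism and loss of muscle. Days were taken from the titles, because another label gives day 3 for every sample, the day 7 livers included. The 3 sham livers, opened without resection and of unstated day, are not in the contrast. They give reference levels and, with 5 day 1 livers, share in the estimate of spread behind every test. The labels give mouse numbers for a single day only, and nothing else says whether the libraries of a group are separate mice, so the p-values measure the spread between these libraries.

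After partial hepatectomy the remaining hepatocytes, which normally rest, enter the cell cycle and divide, helped by cytokine signals such as interleukin 6 acting through STAT3 and by growth factors such as hepatocyte growth factor. While they divide, they keep up only part of their specialised work, which includes breaking down foreign compounds with cytochromes P450 and conjugating enzymes, making bile acids, urea, plasma proteins and lipids, and storing sugar. The remnant also passes through a phase of fat storage and an acute phase response, in which it secretes fibrinogen and other proteins of injury. Macrophages, stellate cells and endothelial cells take part in the repair. Liver mass is known to be largely restored within about a week.

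Total counts assigned to genes were 19036100 to 25202224 in the day 3 libraries and 19009058 to 28862458 in the day 7 libraries. Hepatocyte markers were abundant in all 10, with 9 of them (albumin, transferrin and others) summing to 121886 to 147664 CPM (counts scaled to a common library size) at day 3 and 102792 to 171478 CPM at day 7. Day 7 replicate 3 stood apart. Its median correlation with the other day 7 libraries over log2 CPM was 0.931, against 0.961 to 0.972 for the other 4 and 0.977 to 0.984 for the day 3 libraries. On the first principal component of the 10 libraries, which held 43.2% of the variance of 1000 genes, it scored 21.7, among the day 3 libraries (9.1 to 29.2) and not among the other day 7 libraries (-38.3 to -16.2). On the second component, with 30.4% of the variance, it scored 46.9 and all other libraries between -20.8 and 18.7. Counts of called genes are therefore given with and without it, while some single genes carry the values of only a single fit. The summed level of muscle fibre markers was 43.6 to 210.0 CPM at day 3 and 24.7 to 313 CPM at day 7, that of islet and acinar markers of the pancreas 13.1 to 231 CPM and 17.3 to 85.4 CPM, that of erythroid markers 23.5 to 37.1 CPM and 8.4 to 124 CPM, and that of mesothelial markers 7.6 to 18.9 CPM and 6.08 to 26.2 CPM. Adipocyte markers (6 tested) summed to 3179 to 4125 CPM at day 3 and to 1045 to 4260 CPM at day 7. In sham livers the sums were 893 to 1498 CPM for muscle fibre, 11.7 to 15.3 CPM for pancreas and 128 to 166 CPM for erythroid markers. Sham sums of mesothelial and adipocyte markers were 4.92 to 14.7 CPM and 6525 to 7988 CPM. No member of these lists was called, and their part in the results was not tested.

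Between day 3 and day 7, 9 of 40 conjugating enzymes, 6 of 43 cytochromes P450 of families 1 to 4, the fatty acid desaturase Scd1 and the urea cycle gene Otc rose, and the fibrinogen genes, 9 of 73 genes of the respiratory chain and the fetal gene Afp fell. A gene is said to have risen or fallen where edgeR's quasi-likelihood test gave a Benjamini-Hochberg adjusted p under 0.05 over the 13879 genes tested, and changes are log2 fold changes of day 7 over day 3 ± SE. With all libraries, 175 genes were called, 1.26% of those tested, with 85 higher at day 7 (0.612%) and 90 lower (0.648%). Without day 7 replicate 3, 626 genes were called (4.51%), 369 higher (2.66%) and 257 lower (1.85%). Every count of called list members below is to be read beside these shares. All 175 were among the 626, each in the same direction, and 451 were called only without replicate 3. Of the called genes, 73 were at least 2-fold higher and 41 at least 2-fold lower with all libraries, and 270 and 132 without replicate 3. The genes of largest change in either fit were named below only where the groups of that fit did not overlap. For these the lack of overlap was fixed in advance and is no separate result. With the sham livers left out of the fit, 31 genes were called with all libraries and 361 without day 7 replicate 3. The median log2 change over all genes was 0.02 in both fits. In bulk tissue, fewer cells of a type and less RNA per cell cannot be told apart.

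**Figure D1:**
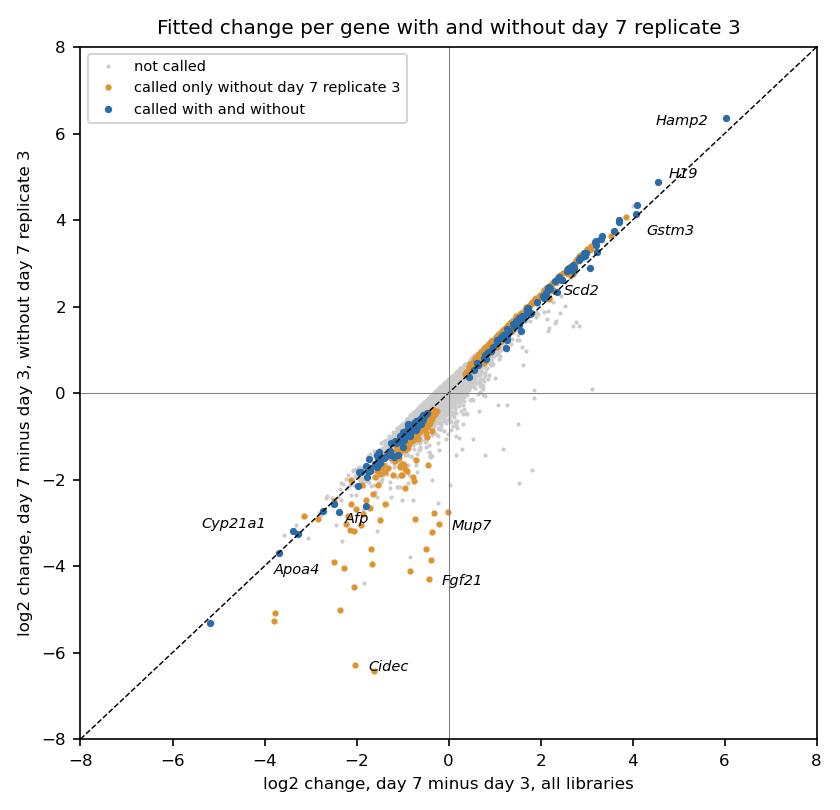
Log2 fold change of day 7 over day 3 for each of the 13879 genes tested, with all 10 libraries (horizontal axis) and without day 7 replicate 3 (vertical axis). Colours mark the 175 genes called in both fits and the 451 called only without replicate 3, and the dashed line marks equal values. Some genes called only without replicate 3, such as Cidec and Fgf21, lie far from the line, and others, such as Asl, lie near it.

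Most of the called genes moved towards their sham level. Of the 85 genes that rose with all libraries, 80 had a day 3 mean below the sham mean, and 32 of these passed the sham mean by day 7 while 48 stayed short of it. Of the 90 that fell, 87 had a day 3 mean above the sham mean, and 42 of these passed below it by day 7. On log2(CPM + 0.5), 70 of the 85 and 74 of the 90 were nearer the sham mean at day 7 than at day 3, beside 59.8% of all genes tested. Without replicate 3 the same held for 248 of the 369 higher genes and 194 of the 257 lower genes, beside 57.3% of all genes. The day 3 libraries enter both the test and this count, so the count is a description only.

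The number of calls was sensitive to single libraries. Leaving out any 1 other library lowered the 175 to between 17 (without day 3 replicate 2) and 149 (without day 7 replicate 5), with 21 without day 3 replicate 4, 37 without day 3 replicate 3 or day 7 replicate 1, 59 without day 7 replicate 4, 73 without day 7 replicate 2, 81 without day 3 replicate 5 and 125 without day 3 replicate 1. No gene of the 175 changed sign in any of these fits. Of 56 genes named here that were called with all libraries, 9 kept their call whichever library was left out. These were Gstm1, Gstm3, Gstm6, Ces1g, Otc, Gbe1, Pigr, Hsd17b7 and Afp. For the remaining 47, the adjusted p was 0.05 to 0.167 in the fits that ended the call. Of 100 named genes called without day 7 replicate 3, 59 kept their call whichever further library was left out. The count of 626 fell to 254 without day 3 replicate 2 and to 230 without day 7 replicate 1, and stayed between 404 and 635 without any other library.

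Conjugating enzymes, which attach glutathione or glucuronic acid to foreign compounds and waste products so that they can be excreted, were the list with the most rises. Of 40 listed enzymes, all tested, 9 rose and 0 fell with all libraries, where 0.612% of all genes rose, and 15 rose and 0 fell without day 7 replicate 3, where 2.66% of all genes rose. The median change over the list was 0.99 with all libraries and 1.04 without day 7 replicate 3. The 9 became 3 without day 3 replicate 2 or 4 and 4 without day 3 replicate 3, and the 15 became 11 to 13 when 1 further library was left out.

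Gstm1, a mu-class glutathione transferase (chr3:108012250-108017973, minus strand, build mm10), had the smallest adjusted p of all genes with all libraries. In the order of replicates 1 to 5, so that the third day 7 value is always that of replicate 3, it stood at 688, 410.0, 517, 353 and 329 CPM at day 3 and at 2806, 2310.0, 1431, 2244 and 3923 CPM at day 7. Every day 7 library, replicate 3 included, lay above every day 3 library by a wide margin, and the sham libraries (1437, 1518 and 1561 CPM) lay near replicate 3 and below the other 4. Gstm1 rose by 2.47 ± 0.29 (adjusted p = 0.0016), and by 2.62 ± 0.27 (adjusted p = 0.000233) without day 7 replicate 3. Gstm3, another mu-class enzyme from the same gene cluster (chr3:107963696-107969174, minus strand), was at 93, 29.1, 48.5, 25.6 and 52.5 CPM at day 3 and at 1069, 682, 653, 484 and 1277 CPM at day 7. The lowest day 7 library held several times the level of the highest day 3 library, and all day 7 libraries were also far above sham (50.3, 62.1 and 62.2 CPM). Gstm3 rose by 4.07 ± 0.57 (adjusted p = 0.00631), and by 4.14 ± 0.6 (adjusted p = 0.00198) without day 7 replicate 3.

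Gstm6 and Gstm4 of the same cluster rose as well, by 1.62 ± 0.22 (adjusted p = 0.00513) and 1.58 ± 0.29 (adjusted p = 0.0186) with all libraries, both without overlap between the groups. Gstm7 was at 25.9, 24.6, 34.5, 29.8 and 30.8 CPM at day 3 and at 54, 64, 13.7, 57.4 and 92.3 CPM at day 7. Here replicate 3 lay below all day 3 libraries while the other 4 day 7 libraries lay above them. Gstm7 was not called with all libraries, at 0.95 ± 0.31 (adjusted p = 0.148), and rose by 1.2 ± 0.17 (adjusted p = 0.00198) without day 7 replicate 3. Gsta2, an alpha-class glutathione transferase, was at 9.52, 2.99, 4.53, 3.62 and 4.86 CPM at day 3 and at 46.9, 54.1, 13, 43.3 and 96.3 CPM at day 7. Again no day 7 library overlapped day 3, and replicate 3 exceeded it by the least. Gsta2 rose by 3.31 ± 0.62 (adjusted p = 0.0194), and by 3.56 ± 0.59 (adjusted p = 0.00351) without day 7 replicate 3. Ugt1a9, a glucuronosyltransferase, rose by 2.72 ± 0.49 (adjusted p = 0.0167). The Gstm genes are close copies of each other, the Ugt1a genes share their 3′ exons, and how reads shared between genes were counted is not given in the sources used here, so single members of these families are uncertain. Gstm4, Gsta2 and Ugt1a9 lost their calls without day 3 replicate 2, 3 or 4 (adjusted p 0.0536 to 0.0842).

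Targets of NRF2, the transcription factor that switches on antioxidant and conjugating enzymes, overlap this list. Of 19 tested (20 listed), 5 rose and 0 fell in both fits, beside rises in 0.612% and 2.66% of all genes, respectively. The 5 were Gstm1, Gstm3, Gsta2, the carboxylesterase Ces1g and Nqo1, a quinone reductase. Ces1g was at 34.9, 11.6, 27.9, 12.4 and 21.8 CPM at day 3 and at 123, 207, 42, 307 and 189 CPM at day 7. Day 7 lay above day 3 throughout, with replicate 3 close to the highest day 3 library. Ces1g rose by 3.0 ± 0.47 (adjusted p = 0.00998), and by 3.25 ± 0.41 (adjusted p = 0.00108) without day 7 replicate 3. Nqo1 was at 15.7, 12.3, 10.7, 11.1 and 10.4 CPM at day 3 and at 19.8, 48.9, 17.7, 18.9 and 62.1 CPM at day 7. Replicates 2 and 5 of day 7 were far above the rest, and the remaining 3 lay just above the highest day 3 library. Nqo1 rose by 1.48 ± 0.31 (adjusted p = 0.0295), and by 1.64 ± 0.29 (adjusted p = 0.00607) without day 7 replicate 3. The 5 became 3 without day 3 replicate 2, 3 or 4. Nqo1 lost its call without day 3 replicate 2, 3, 4 or 5 or day 7 replicate 2 (adjusted p 0.0595 to 0.0941).

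Cytochromes P450 of families 1 to 4, the oxidising enzymes of drug, steroid and fatty acid metabolism, gave 6 rises and 0 falls among 43 tested (48 listed) with all libraries, and 11 rises and 0 falls without replicate 3. Among all genes, 0.612% and 2.66% rose in these fits, respectively. The median change of the P450 list was 0.52 with all libraries and 0.45 without day 7 replicate 3. As the median over the list of log2(CPM + 0.5) minus the day 3 mean, replicates 1 to 5 of day 7 stood at 0.08, 0.39, 0.31, 1.28 and 0.09 and those of day 3 at 0.31, -0.12, 0.04, -0.23 and 0.07. Day 7 replicate 4 stood apart, replicate 2 was above all day 3 libraries by little, and the other 3 lay within the day 3 range. Outside these families, Cyp51 and Cyp21a1, described further on, fell. Members of the Cyp2c cluster of chromosome 19 led, with Cyp2c50 at 2.91 ± 0.5 (adjusted p = 0.0159) with all libraries. Cyp2c54 was at 26.2, 5.41, 11.9, 7.15 and 12.4 CPM at day 3 and at 56, 73.6, 37.8, 352 and 62.3 CPM at day 7. Day 7 lay wholly above day 3, and day 7 replicate 4 held several times the level of any other. Cyp2c54 rose by 3.2 ± 0.58 (adjusted p = 0.0167), and by 3.43 ± 0.56 (adjusted p = 0.00344) without day 7 replicate 3. Cyp2c70, which converts bile acids to muricholic acids in mice, was at 81.1, 18.4, 82.2, 40.1 and 83.2 CPM at day 3 and at 440.2, 557, 93.6, 502 and 616 CPM at day 7. Replicate 3 lay just above the day 3 libraries and the other 4 day 7 libraries far above them. Cyp2c70 rose by 2.86 ± 0.57 (adjusted p = 0.0274), and by 3.11 ± 0.51 (adjusted p = 0.00351) without day 7 replicate 3. The reads of Cyp2c genes can be shared between close copies.

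Cyp2f2, a periportal enzyme, rose by 2.11 ± 0.4 (adjusted p = 0.0194) and Cyp3a11, a major drug-oxidising enzyme, by 1.26 ± 0.27 (adjusted p = 0.0339), both without overlap. Cyp1a2, a pericentral enzyme, was at 114, 1.08, 3.64, 1.01 and 28.1 CPM at day 3 and at 395, 221, 169, 932 and 419 CPM at day 7. Day 3 replicates 1 and 5 were well above the other day 3 libraries, and all day 7 libraries lay above all of them. Cyp1a2 was not called with all libraries, at 3.85 ± 1.06 (adjusted p = 0.0857), and rose by 4.06 ± 1.09 (adjusted p = 0.0441) without day 7 replicate 3. Cyp2e1, another pericentral enzyme, was at 1675, 2023, 1568, 1307 and 1815 CPM at day 3 and at 1389, 1268, 1335, 5169.7 and 1274 CPM at day 7. Apart from replicate 4, day 7 libraries lay within or just below the range of day 3, and all were below sham (11008, 9553 and 12089 CPM). Its change was 0.32 ± 0.42 (adjusted p = 0.801) with all libraries and 0.44 ± 0.44 (adjusted p = 0.656) without day 7 replicate 3. Cyp2c50 and Cyp2f2 lost their calls without day 3 replicate 2 or 4 (adjusted p 0.0544 to 0.0821). Cyp2c54 lost its call without day 3 replicate 2, 3 or 4 (adjusted p 0.0532 to 0.0721). Cyp2c70 lost its call without day 3 replicate 2, 3 or 4 or day 7 replicate 1 or 4 (adjusted p 0.0519 to 0.0872). Cyp3a11 lost its call without day 3 replicate 2, 3, 4 or 5 or day 7 replicate 1, 2 or 4 (adjusted p 0.0564 to 0.114). Cyp1a2, with replicate 3 already out, lost its call without day 3 replicate 2, 3, 4 or 5 or any 1 other day 7 library (adjusted p 0.0504 to 0.107). With all libraries the 6 rises became 0 without day 3 replicate 2 or 4, 2 without day 3 replicate 3, 3 without day 7 replicate 1 or 4, and were 4 to 9 otherwise. Without replicate 3 the 11 rises stayed at 9 to 12, and the 0 falls became 3 without day 7 replicate 4.

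**Figure D2:**
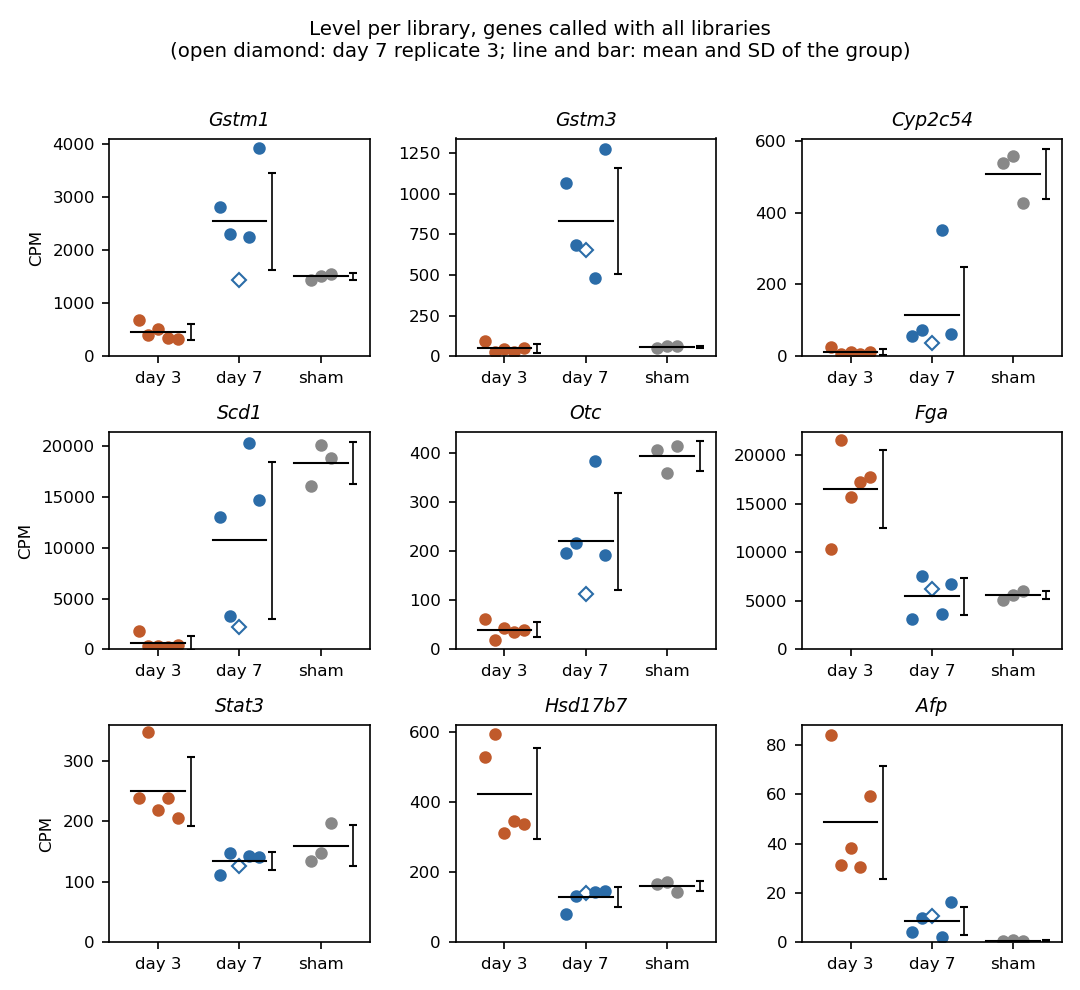
CPM (TMM-scaled) of 9 genes called with all libraries, one panel each, in the 3 sham, 5 day 3 and 5 day 7 livers. Each point is a library, the open diamond is day 7 replicate 3, and lines and bars give mean and SD, cut off at 0. Day 7 replicate 3 lies on the day 7 side of the day 3 libraries in each panel.

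Zonation lists, which hold genes expressed by hepatocytes near the central or the portal vein, moved in part. For reference, 0.612% of all genes rose and 0.648% fell with all libraries, and 2.66% and 1.85% without replicate 3. Pericentral genes gave 3 rises among 26 tested with all libraries and 7 without replicate 3, with 0 falls in both and a median of 0.92 with all libraries and 1.02 without day 7 replicate 3. By the median over this list of log2(CPM + 0.5) minus the day 3 mean, day 7 stood at 0.681, 0.164, 0.596, 1.987 and 0.416 in replicates 1 to 5. Day 3 stood at 0.153, -0.439, 0.112, -0.262 and 0.35. Day 7 replicate 4 stood apart, replicates 1, 3 and 5 lay above the day 3 range by less, and replicate 2 lay within it. Rgn, a calcium-binding lactonase, was at 104, 16.3, 34.8, 20 and 80.5 CPM at day 3 and at 334, 236, 109, 834 and 308 CPM at day 7. Day 7 replicate 3 exceeded the highest day 3 library by little and the others exceeded it by more. Rgn rose by 2.83 ± 0.57 (adjusted p = 0.0285), and by 3.07 ± 0.55 (adjusted p = 0.00621) without day 7 replicate 3. Aqp8, a water channel of the hepatocyte's bile-side membrane and mitochondria, is on neither zonation list and was at 5.47, 1.24, 3.14, 3.76 and 5.25 CPM at day 3 and at 58, 26.1, 10.4, 26.9 and 25.9 CPM at day 7. Every day 7 library exceeded every day 3 library. Aqp8 rose by 2.96 ± 0.65 (adjusted p = 0.0349), and by 3.18 ± 0.65 (adjusted p = 0.012) without day 7 replicate 3. Glul, glutamine synthetase of the innermost pericentral cells, was at 179, 113, 131, 109 and 114 CPM at day 3 and at 256, 85.5, 161, 683 and 99 CPM at day 7. Replicates 1 and 4 lay above the day 3 libraries and the other 3 did not. Its change was 0.99 ± 0.46 (adjusted p = 0.331) with all libraries and 1.13 ± 0.48 (adjusted p = 0.212) without day 7 replicate 3. Periportal genes gave 2 rises and 0 falls among 21 with all libraries, and 2 rises and 4 falls without replicate 3. Pigr, the receptor that carries IgA into bile, was at 235, 147, 202, 188 and 194 CPM at day 3 and at 521, 678, 280.0, 922 and 518 CPM at day 7. The groups did not overlap, and all day 7 libraries remained below sham (1429, 1401 and 1306 CPM). Pigr rose by 1.59 ± 0.26 (adjusted p = 0.0114), and by 1.77 ± 0.22 (adjusted p = 0.00108) without day 7 replicate 3. Rgn lost its call without day 3 replicate 2, 3 or 4 or day 7 replicate 1 or 4 (adjusted p 0.0588 to 0.0941). Aqp8 lost its call without any 1 day 3 library or day 7 replicate 1, 2 or 4 (adjusted p 0.0517 to 0.113). The 2 periportal rises became 1 without day 3 replicate 2 or 4, and the 4 falls became 1 to 3 without any 1 further library. The 3 pericentral rises became 0 without day 3 replicate 2 or 4, 1 without day 3 replicate 3 and 5 without day 3 replicate 1, and the 7 with replicate 3 out became 3 without day 3 replicate 2 or day 7 replicate 1 and 4 without day 3 replicate 4 or day 7 replicate 4.

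Some genes of fatty acid synthesis rose, as did lipase genes that handle plasma triglyceride. Of 32 genes of fatty acid and triglyceride synthesis tested (33 listed), 2 rose and 0 fell with all libraries, and 11 rose and 5 fell without replicate 3, with a median of 0.49 with all libraries and 0.37 without day 7 replicate 3. The 5 that fell included Plin2 and Cidec, which coat stored fat droplets. Over all genes, 0.612% rose with all libraries, and 2.66% rose and 1.85% fell without replicate 3. As the median over the list of log2(CPM + 0.5) minus the day 3 mean, replicates 1 to 5 of day 7 stood at 0.206, -0.078, 0.036, 0.753 and 0.305. Those of day 3 stood at 0.349, 0.054, -0.203, -0.238 and 0.088. Only day 7 replicate 4 lay above the day 3 range. Scd1, which makes monounsaturated fatty acids (chr19:44394450-44407709, minus strand), was at 1815, 314, 298, 268 and 466 CPM at day 3 and at 13065, 3307, 2230.2, 20321 and 14739.7 CPM at day 7. All day 7 libraries lay above all day 3 libraries, with replicates 2 and 3 the lowest, and 3 of them came near sham (16105, 20183 and 18820.0 CPM). Scd1 rose by 4.09 ± 0.74 (adjusted p = 0.0167), and by 4.35 ± 0.7 (adjusted p = 0.00341) without day 7 replicate 3.

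Scd2, a desaturase more typical of fetal liver and brain, was at 32.5, 33.9, 29, 39.8 and 29.4 CPM at day 3 and at 167, 103, 7, 166 and 337 CPM at day 7. Replicate 3 was at sham level (8.28, 16.5 and 6.53 CPM) and below all day 3 libraries, and the other 4 were above them. Scd2 was not called with all libraries, at 2.24 ± 0.56 (adjusted p = 0.0588), and rose by 2.55 ± 0.3 (adjusted p = 0.000887) without day 7 replicate 3. Srebf1, encoding the factor that drives lipid synthesis genes after insulin, was not called with all libraries, at 1.76 ± 0.53 (adjusted p = 0.111), and rose by 2.04 ± 0.45 (adjusted p = 0.0162) without day 7 replicate 3. Mlxipl, encoding the carbohydrate-responsive factor ChREBP, was not called with all libraries, at 1.34 ± 0.33 (adjusted p = 0.0564), and rose by 1.5 ± 0.33 (adjusted p = 0.0169) without day 7 replicate 3. Acaca, which makes malonyl-CoA, was not called with all libraries, at 0.65 ± 0.18 (adjusted p = 0.0792), and rose by 0.77 ± 0.16 (adjusted p = 0.0132) without day 7 replicate 3. Fasn, fatty acid synthase, was not called in either fit, at 1.22 ± 0.44 (adjusted p = 0.19) with all libraries and 1.43 ± 0.42 (adjusted p = 0.0632) without day 7 replicate 3, with 4 day 7 libraries at 670 to 1456 CPM and replicate 3 at 362 CPM, beside 313 to 520 CPM at day 3. Scd1 lost its call without day 3 replicate 2, 3 or 4 (adjusted p 0.0536 to 0.0721). Srebf1, with replicate 3 already out, lost its call without day 3 replicate 2 (adjusted p = 0.0535). Mlxipl, with replicate 3 already out, lost its call without day 3 replicate 2 or day 7 replicate 1 or 4 (adjusted p 0.0512 to 0.0622). The 2 rises with all libraries became 0 without day 3 replicate 2, 3 or 4 and 1 without day 3 replicate 5 or day 7 replicate 1 or 4. Without replicate 3 the 5 falls became 3 without day 7 replicate 1, and the 11 rises became 5 without day 3 replicate 2, 6 without day 7 replicate 1 and 7 without day 3 replicate 3, 4 or 5 or day 7 replicate 4.

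Lpl, lipoprotein lipase, which adult hepatocytes barely make and macrophages make, was at 43.4, 40.9, 40.5, 48.9 and 35.2 CPM at day 3 and at 196, 363, 30.6, 124 and 388 CPM at day 7. Replicate 3 was below all day 3 libraries and the others were above them. Lpl rose by 2.4 ± 0.54 (adjusted p = 0.0374), and by 2.68 ± 0.44 (adjusted p = 0.00344) without day 7 replicate 3. Lipc, hepatic lipase, was at 26.1, 17.3, 20.2, 15 and 16.2 CPM at day 3 and at 107, 48.5, 41.1, 173 and 31 CPM at day 7. There was no overlap, with replicate 5 the lowest of day 7. Lipc rose by 2.08 ± 0.42 (adjusted p = 0.0274), and by 2.25 ± 0.42 (adjusted p = 0.00723) without day 7 replicate 3. Lpl lost its call without any 1 day 3 library or any 1 other day 7 library (adjusted p 0.0594 to 0.121). Lipc lost its call without day 3 replicate 2, 3, 4 or 5 or day 7 replicate 1 or 4 (adjusted p 0.0547 to 0.0941).

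Genes of glycogen and sugar handling moved in both directions. All genes tested gave 0.612% rises and 0.648% falls with all libraries, and 2.66% and 1.85% without replicate 3. Among 40 genes of glycolysis and gluconeogenesis (41 listed), 3 rose and 1 fell with all libraries, and 3 rose and 2 fell without replicate 3, with medians of 0.0 with all libraries and 0.04 without day 7 replicate 3. Gbe1, the glycogen branching enzyme, was at 123, 80.6, 88.9, 76.6 and 91.5 CPM at day 3 and at 270.2, 162, 254, 222 and 204 CPM at day 7. The groups did not overlap. Gbe1 rose by 1.27 ± 0.18 (adjusted p = 0.00631), and by 1.22 ± 0.19 (adjusted p = 0.00317) without day 7 replicate 3. Pygl, liver glycogen phosphorylase, rose by 1.46 ± 0.31 (adjusted p = 0.0327). Ldha, lactate dehydrogenase A, was at 708, 842, 723, 777 and 713 CPM at day 3 and at 229.6, 315, 420.1, 270.0 and 328 CPM at day 7. All day 7 libraries lay below all day 3 libraries, and replicate 3 was the highest of them. Ldha fell, with a log2 change of -1.27 ± 0.22 (adjusted p = 0.0159), and of -1.4 ± 0.23 (adjusted p = 0.00341) without day 7 replicate 3. Gapdh, a glycolytic enzyme, was not called with all libraries, at -0.7 ± 0.2 (adjusted p = 0.0941), and fell, at -0.86 ± 0.19 (adjusted p = 0.0161) without day 7 replicate 3. Pygl lost its call without day 3 replicate 2, 3, 4 or 5 or day 7 replicate 1, 2 or 4 (adjusted p 0.0505 to 0.112). Ldha lost its call without day 3 replicate 2 or 4 (adjusted p 0.0544 to 0.0629). Gapdh, with replicate 3 already out, lost its call without day 3 replicate 2 or day 7 replicate 1 (adjusted p 0.0514 to 0.052). The 3 rises of the list became 1 without day 3 replicate 2, 3, 4 or 5 or day 7 replicate 1, 2 or 4, and its 1 fall became 0 without day 3 replicate 2 or 4 and 2 without day 7 replicate 4. With replicate 3 out, the 2 falls became 1 without day 3 replicate 2 or day 7 replicate 1.

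Bile acid genes gave 2 rises and 0 falls among 34 tested (35 listed), and 3 rises without replicate 3. Shares of all genes that rose were 0.612% and 2.66%, respectively. Cyp27a1, the mitochondrial sterol hydroxylase of the alternative bile acid pathway, was at 80.3, 70.9, 88.3, 62.8 and 105 CPM at day 3 and at 169, 199, 202, 372 and 241 CPM at day 7. The groups did not overlap, and all day 7 libraries were below sham (549.6, 509 and 553 CPM). Cyp27a1 rose by 1.54 ± 0.27 (adjusted p = 0.0159), and by 1.59 ± 0.28 (adjusted p = 0.00594) without day 7 replicate 3. Akr1c6, a steroid reductase, rose by 2.63 ± 0.58 (adjusted p = 0.035), and Akr1d1, a steroid reductase of bile acid synthesis, was not called with all libraries, at 1.17 ± 0.4 (adjusted p = 0.172), and rose by 1.44 ± 0.28 (adjusted p = 0.00917) without day 7 replicate 3. Cyp7a1, the rate-limiting enzyme of bile acid synthesis, was at 146, 0.412, 3.33, 0.367 and 35.6 CPM at day 3 and at 700.1, 182, 1.11, 1987 and 107 CPM at day 7. It ranged very widely within day 3 and more so within day 7, where replicate 3 was near the lowest day 3 libraries and replicate 4 above all sham libraries. Its change was 4.0 ± 1.56 (adjusted p = 0.234) with all libraries and 4.33 ± 1.42 (adjusted p = 0.0931) without day 7 replicate 3. Cyp27a1 lost its call without day 3 replicate 2 or 4 (adjusted p 0.055 to 0.0653). Akr1c6 lost its call without day 3 replicate 2, 3, 4 or 5 or day 7 replicate 1, 2 or 4 (adjusted p 0.0506 to 0.106). The 2 rises became 0 without day 3 replicate 2 or 4, and 1 without day 3 replicate 3 or 5 or day 7 replicate 1, 2 or 4.

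Urea cycle and amino acid genes gave 2 rises and 0 falls among 56, and 6 rises and 2 falls without replicate 3. Over all genes, 0.612% rose with all libraries, and 2.66% rose and 1.85% fell without replicate 3. Otc, the mitochondrial ornithine transcarbamylase of the urea cycle (chrX:10252359-10321024, plus strand), was at 62.2, 18.8, 44.1, 35.9 and 39.2 CPM at day 3 and at 196, 216, 112, 383 and 193 CPM at day 7. All day 7 libraries, replicate 3 included, lay above all day 3 libraries, and replicate 4 alone reached the sham range (406, 359 and 415 CPM). Otc rose by 2.46 ± 0.37 (adjusted p = 0.00692), and by 2.62 ± 0.36 (adjusted p = 0.0019) without day 7 replicate 3. Hgd, of tyrosine breakdown, rose by 1.14 ± 0.24 (adjusted p = 0.0315). Asl, argininosuccinate lyase of the same cycle as Otc, was at 349, 629, 433, 429.9 and 331 CPM at day 3 and at 98.4, 225, 199, 219.5 and 221 CPM at day 7. Here the day 7 libraries lay below day 3 in every case. Asl was not called with all libraries, at -1.17 ± 0.3 (adjusted p = 0.0623), and fell, at -1.18 ± 0.33 (adjusted p = 0.0484) without day 7 replicate 3. Mat1a, which makes the methyl donor S-adenosylmethionine, was not called with all libraries, at -1.28 ± 0.37 (adjusted p = 0.0978), and fell, at -1.46 ± 0.39 (adjusted p = 0.0401) without day 7 replicate 3. Cps1, the first enzyme of the urea cycle, changed by -0.23 ± 0.28 (adjusted p = 0.787) with all libraries and -0.17 ± 0.3 (adjusted p = 0.825) without day 7 replicate 3, which was not past the threshold. Hgd lost its call without any 1 day 3 library or day 7 replicate 1 or 4 (adjusted p 0.0537 to 0.0941). Asl, with replicate 3 already out, lost its call without any 1 day 3 library or any 1 other day 7 library (adjusted p 0.0548 to 0.147). Mat1a, with replicate 3 already out, lost its call without any 1 day 3 library or day 7 replicate 1, 4 or 5 (adjusted p 0.051 to 0.113). The 2 rises with all libraries became 1, that of Otc, when any 1 day 3 library or day 7 replicate 1 or 4 was left out, and the 6 without replicate 3 became 3 without day 3 replicate 1, 2 or 4 or day 7 replicate 4.

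Among acute phase genes, those of fibrinogen fell. Of 35 acute phase genes, all tested, 0 rose and 3 fell with all libraries, where 0.648% of all genes fell, and 0 rose and 6 fell without replicate 3, where 1.85% of all genes fell. The median was -0.89 with all libraries and -0.85 without day 7 replicate 3. The 3 were Fga, Fgb and Fgg, which encode the chains of fibrinogen, the precursor of fibrin clots, and lie side by side on chromosome 3. Fga (chr3:83026153-83033617, plus strand) was at 10399, 21547, 15675, 17304 and 17734 CPM at day 3 and at 3181, 7589, 6197, 3686 and 6710.3 CPM at day 7. The day 7 libraries lay below all day 3 libraries, and replicates 1 and 4 also below sham (5143, 5634 and 6046 CPM). Fga fell, with a log2 change of -1.59 ± 0.29 (adjusted p = 0.0167), and of -1.64 ± 0.32 (adjusted p = 0.00872) without day 7 replicate 3. Fgb (chr3:83042305-83049790, minus strand) was at 7354, 14694, 10866, 11506 and 11508 CPM at day 3 and at 2520.3, 5594, 5318, 2785 and 5014 CPM at day 7. Again the groups did not overlap, and replicates 1 and 4 were the lowest. Fgb fell, with a log2 change of -1.4 ± 0.29 (adjusted p = 0.0285), and of -1.49 ± 0.31 (adjusted p = 0.013) without day 7 replicate 3. Fgg (chr3:83007896-83015049, plus strand) changed by -1.51 ± 0.29 (adjusted p = 0.0233) with all libraries, also without overlap. Fga lost its call without day 3 replicate 2 or 4 (adjusted p 0.055 to 0.0721). Fgb lost its call without day 3 replicate 2, 3, 4 or 5 or day 7 replicate 1 or 4 (adjusted p 0.0527 to 0.0971). Fgg lost its call without day 3 replicate 2, 3 or 4 or day 7 replicate 1 or 4 (adjusted p 0.0536 to 0.092). The 3 falls of the list became 0 without day 3 replicate 2 or 4, 1 without day 3 replicate 3 or day 7 replicate 1 or 4 and 5 without day 3 replicate 1 or day 7 replicate 2, and the 6 with replicate 3 out became 11 without day 3 replicate 1.

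The promoters of the fibrinogen genes are shown because the 3 genes moved together and fibrinogen is a classic target of interleukin 6. Each window runs from 250 bases before to 50 bases after the gene's start in RefSeq (GRCm38.p6, the assembly called mm10), and reads 5′ to 3′ along the gene. Capitals mark the letters CTGGGAA, the core of the type II interleukin 6 element that STAT3 binds, searched on both strands and chosen after the values were seen. For Fgb and Fgg that start lies upstream of the start in the deposited table's coordinates given above, so their windows end before the latter. The windows are chr3:83025903-83026202 (plus strand), chr3:83049814-83050113 (minus strand) and chr3:83007474-83007773 (plus strand).
Fga: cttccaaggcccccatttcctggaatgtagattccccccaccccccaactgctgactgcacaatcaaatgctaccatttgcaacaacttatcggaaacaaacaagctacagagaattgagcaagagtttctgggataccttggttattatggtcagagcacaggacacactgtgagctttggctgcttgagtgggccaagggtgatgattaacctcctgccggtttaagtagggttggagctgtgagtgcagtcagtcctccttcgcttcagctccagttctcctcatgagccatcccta
Fgb: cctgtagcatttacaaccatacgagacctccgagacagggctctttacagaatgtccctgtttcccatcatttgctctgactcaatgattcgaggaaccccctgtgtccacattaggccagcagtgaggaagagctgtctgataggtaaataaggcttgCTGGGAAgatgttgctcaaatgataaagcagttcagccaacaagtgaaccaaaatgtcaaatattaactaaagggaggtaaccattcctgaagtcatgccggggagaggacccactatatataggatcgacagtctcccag
Fgg: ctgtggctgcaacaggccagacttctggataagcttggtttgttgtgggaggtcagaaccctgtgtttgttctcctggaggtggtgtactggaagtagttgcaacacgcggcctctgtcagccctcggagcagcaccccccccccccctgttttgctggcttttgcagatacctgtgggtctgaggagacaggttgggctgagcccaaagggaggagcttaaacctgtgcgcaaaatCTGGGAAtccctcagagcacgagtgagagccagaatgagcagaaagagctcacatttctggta
The letters stand 91 bases before the RefSeq start in Fgb and 13 bases before it in Fgg, and are not in the Fga window. Among all 10469 tested genes with a window, 13.2% hold them, and among 26 acute phase genes with a window 7 (26.9%). A match is a description of letters and not a binding site.

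Among genes of the cytokine signalling that induces the acute phase, Stat3 and Il1r1 fell. Of 18 genes listed under the interleukin 6 family and STAT3 signalling, 0 rose and 2 fell in both fits. Over all genes, 0.648% fell with all libraries and 1.85% without replicate 3. The list also holds Il1r1, the receptor of interleukin 1, which is outside that family and is counted among the 2. Stat3, the factor itself, was at 238, 348, 219, 238 and 204 CPM at day 3 and at 112, 148, 126, 143 and 142 CPM at day 7. The groups did not overlap, and the day 7 libraries lay within or below the sham range (134, 147 and 197 CPM). Stat3 fell, with a log2 change of -0.9 ± 0.19 (adjusted p = 0.029), and of -0.87 ± 0.2 (adjusted p = 0.0203) without day 7 replicate 3. Il1r1, the interleukin 1 receptor, was at 289, 573, 513, 471 and 354 CPM at day 3 and at 87.2, 225, 149, 53.8 and 157 CPM at day 7. No day 7 library reached the lowest of day 3. Il1r1 fell, with a log2 change of -1.71 ± 0.39 (adjusted p = 0.0374), and of -1.75 ± 0.43 (adjusted p = 0.029) without day 7 replicate 3. Socs3, the feedback inhibitor that STAT3 induces, was at 30.8, 64.7, 45.1, 84.9 and 37.4 CPM at day 3 and at 16.1, 19.4, 15.5, 12.5 and 15.9 CPM at day 7. There was no overlap here either, yet the change, -1.73 ± 0.62 (adjusted p = 0.193) with all libraries and -1.72 ± 0.69 (adjusted p = 0.175) without day 7 replicate 3, was not past the threshold. Stat3 lost its call without day 3 replicate 2, 3 or 4 or day 7 replicate 1, 2 or 4 (adjusted p 0.0528 to 0.103). Il1r1 lost its call without day 3 replicate 2, 3, 4 or 5 or day 7 replicate 1, 4 or 5 (adjusted p 0.0552 to 0.121). Stat3, with replicate 3 already out, lost its call without day 3 replicate 2 or day 7 replicate 1 (adjusted p 0.0613 to 0.0847). Il1r1, with replicate 3 already out, lost its call without day 3 replicate 2, 3 or 4 or day 7 replicate 1 or 4 (adjusted p 0.0556 to 0.105). Both falls of the list are those of these genes.

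Some other secreted proteins and stress genes fell too, but secreted proteins did not fall as 1 group. Of 43 coagulation and complement genes tested, 0 rose and 4 fell with all libraries, and 4 rose and 4 fell without replicate 3. Shares of all genes were 0.648% lower with all libraries, and 2.66% higher and 1.85% lower without replicate 3. Medians of that list were 0.20 with all libraries and 0.31 without day 7 replicate 3. Its 4 falls with all libraries became 0 without day 3 replicate 2 or 4. With replicate 3 out, its 4 rises became 1 to 7 when 1 further library was left out. Fn1, fibronectin, fell (-1.14 ± 0.25 (adjusted p = 0.0354)) with no overlap, as did Pros1, the anticoagulant protein S (-0.99 ± 0.21 (adjusted p = 0.0327)), Nnmt, a nicotinamide methyltransferase (-1.75 ± 0.38 (adjusted p = 0.033)), and Tifa, an adaptor of NF-kB signalling (-1.72 ± 0.38 (adjusted p = 0.0369)). Serpina3k, an abundant plasma protease inhibitor, was at 4511, 6324, 5629, 5136 and 6509.9 CPM at day 3 and at 1061, 1999.7, 7218, 1845 and 2243 CPM at day 7. Replicate 3 stood above every day 3 library, and the other 4 stood below all of them. Serpina3k was not called with all libraries, at -0.97 ± 0.38 (adjusted p = 0.238), and fell, at -1.65 ± 0.24 (adjusted p = 0.00214) without day 7 replicate 3. Serpina3m and Serpina3n, its close copies, were also called only without replicate 3, at -1.87 ± 0.39 (adjusted p = 0.0135) and -1.79 ± 0.44 (adjusted p = 0.03), and reads may be shared between them. Saa1 and Lcn2, strongly induced in injury, were not called in either fit. Saa1 was at 49.2, 42.6, 288, 216 and 577 CPM at day 3 and at 25.5, 90.5, 342, 28.4 and 63.1 CPM at day 7. Replicate 3 lay inside the day 3 range, as did replicates 2 and 5, and the other 2 below it. Lcn2 was at 2313, 4644, 8302, 8057 and 11088 CPM at day 3 and at 1323, 5390.4, 1155, 307 and 2988 CPM at day 7. Replicates 2 and 5 lay within the day 3 range and the other 3 below it, and all 10 were above sham (55.3, 48.8 and 9.61 CPM). Fn1 and Nnmt lost their calls without day 3 replicate 2, 3, 4 or 5 or any 1 other day 7 library (adjusted p 0.05 to 0.118). Pros1 lost its call without day 3 replicate 2, 3, 4 or 5 or day 7 replicate 1 or 4 (adjusted p 0.0527 to 0.112). Tifa lost its call without day 3 replicate 2, 3 or 4 or any 1 other day 7 library (adjusted p 0.0545 to 0.11). Fn1, with replicate 3 already out, lost its call without day 3 replicate 2 or day 7 replicate 1 or 4 (adjusted p 0.0563 to 0.0884). Pros1, with replicate 3 already out, lost its call without day 3 replicate 2 or 4 or day 7 replicate 1 or 4 (adjusted p 0.0529 to 0.0936). Nnmt, with replicate 3 already out, lost its call without day 3 replicate 2 or day 7 replicate 1 (adjusted p 0.0602 to 0.0846). Tifa, with replicate 3 already out, lost its call without day 3 replicate 2, 3 or 4 or any 1 other day 7 library (adjusted p 0.0527 to 0.083). Serpina3n, with replicate 3 already out, lost its call without day 3 replicate 2, 3, 4 or 5 or day 7 replicate 1 or 4 (adjusted p 0.0566 to 0.11).

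Nuclear genes of the respiratory chain, the mitochondrial machinery that makes ATP, gave 9 falls. All 73 tested genes (74 listed) had a negative log2 change in both fits. Of these, 9 fell with all libraries and 13 without replicate 3, beside 0.648% and 1.85% of all genes, and 0 rose. The median was -0.35 with all libraries and -0.34 without day 7 replicate 3, beside 0.02 for all genes in both fits, so single changes were small. As the median over the list of log2(CPM + 0.5) minus the day 3 mean, replicates 1 to 5 of day 7 stood at -0.65, -0.46, -0.37, -0.06 and -0.29 and those of day 3 at -0.01, 0.12, 0.12, -0.02 and -0.20. Day 7 replicate 4 lay within the day 3 range and the other 4 below it. Uqcr10, of complex III, was at 54.8, 60.7, 51.5, 48.3 and 38.5 CPM at day 3 and at 20.9, 29, 26.6, 33.7 and 37.8 CPM at day 7. The groups did not overlap, although day 7 replicate 5 came close to the lowest day 3 library. Uqcr10 fell, with a log2 change of -0.78 ± 0.15 (adjusted p = 0.0233), and of -0.74 ± 0.16 (adjusted p = 0.0155) without day 7 replicate 3. Uqcrh, of the same complex, was at 67.5, 80.7, 81.2, 72.5 and 62.5 CPM at day 3 and at 33.1, 46.9, 49.1, 50.3 and 51.2 CPM at day 7. All day 7 libraries, replicate 3 included, were below all day 3 libraries and below sham (58.4, 57.4 and 58.2 CPM). Uqcrh fell, with a log2 change of -0.66 ± 0.13 (adjusted p = 0.0274), and of -0.68 ± 0.14 (adjusted p = 0.0132) without day 7 replicate 3. Cox7a2, of complex IV, changed by -0.6 ± 0.13 (adjusted p = 0.033), and Atp5o and Atp5g3, of the ATP synthase, by -0.66 ± 0.13 (adjusted p = 0.0281) and -0.68 ± 0.15 (adjusted p = 0.0374).

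Cycs, cytochrome c, was at 162, 164, 156, 154 and 112 CPM at day 3 and at 67, 72.4, 153, 84.7 and 87 CPM at day 7. Replicate 3 lay at the level of the day 3 libraries and the other 4 below them. Cycs was not called with all libraries, at -0.69 ± 0.2 (adjusted p = 0.107), and fell, at -0.94 ± 0.16 (adjusted p = 0.00351) without day 7 replicate 3. Uqcr10, Uqcrh and Atp5o lost their calls without day 3 replicate 2, 3 or 4 or day 7 replicate 1 or 2 (adjusted p 0.0514 to 0.0941). Cox7a2 lost its call without day 3 replicate 2, 3, 4 or 5 or day 7 replicate 1, 2 or 5 (adjusted p 0.0547 to 0.106). Atp5g3 lost its call without day 3 replicate 1, 2, 3 or 4 or day 7 replicate 1, 2 or 5 (adjusted p 0.0621 to 0.123). Uqcr10 and Atp5o, with replicate 3 already out, lost their calls without day 3 replicate 2 or day 7 replicate 1 (adjusted p 0.0514 to 0.0685). Atp5g3, with replicate 3 already out, lost its call without day 3 replicate 2 or day 7 replicate 1 or 2 (adjusted p 0.0504 to 0.0704). Cox7a2, with replicate 3 already out, lost its call without day 7 replicate 1 (adjusted p = 0.0604). The count of 9 became 0 without day 3 replicate 2, 3 or 4 or day 7 replicate 1 or 2, 4 without day 3 replicate 1 or day 7 replicate 5 and 5 without day 3 replicate 5 or day 7 replicate 4. Without replicate 3 the 13 became 2 without day 7 replicate 1, 3 without day 3 replicate 2, 5 without day 7 replicate 2, and 6 and 7 without day 3 replicates 3 and 4. The table holds 0 genes of the mitochondrial genome, so the subunits encoded there were not analysed here.

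**Figure D3:**
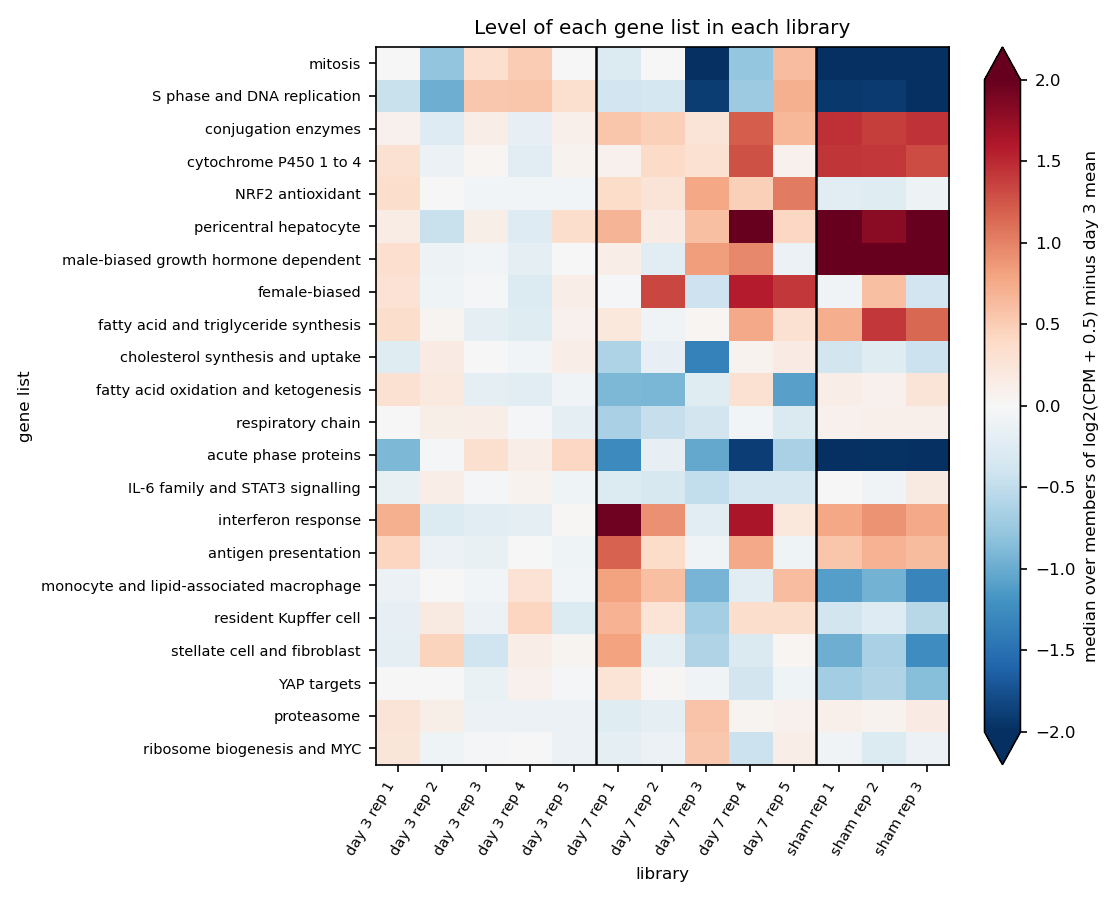
Median log2(CPM + 0.5) of each gene list in each library, as the difference from the mean of the day 3 libraries. Columns are the sham, day 3 and day 7 libraries, rows are lists, and the colour scale runs from -2 to 2. Day 7 replicate 3 is the lowest day 7 library in the division, macrophage, cholesterol synthesis and interferon lists. In the interferon list day 7 replicate 5 (0.21) lies nearest to it (-0.216).

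Fatty acid oxidation and ketogenesis gave 1 fall among 39 genes with all libraries and 7 without replicate 3, with 0 rises in both and a median of -0.35 with all libraries and -0.44 without day 7 replicate 3. Falls over all genes were 0.648% and 1.85%, respectively. Eci2, an isomerase of unsaturated fatty acid breakdown, was at 366, 374, 251, 263 and 294 CPM at day 3 and at 69.8, 111, 243, 173 and 87 CPM at day 7. Replicate 3 was just below the lowest day 3 library and the other 4 well below it. Eci2 fell, with a log2 change of -1.18 ± 0.28 (adjusted p = 0.0493), and of -1.49 ± 0.25 (adjusted p = 0.00387) without day 7 replicate 3. Acadl, long-chain acyl-CoA dehydrogenase, was at 362, 339.7, 273, 264 and 246 CPM at day 3 and at 85.7, 117, 278, 178 and 113 CPM at day 7. Replicate 3 fell within the day 3 range and the others below it. Acadl was not called with all libraries, at -0.94 ± 0.25 (adjusted p = 0.0736), and fell, at -1.26 ± 0.19 (adjusted p = 0.00253) without day 7 replicate 3. Cpt1a, which brings fatty acids into mitochondria, was not called, at -1.04 ± 0.28 (adjusted p = 0.0792) with all libraries and -1.05 ± 0.3 (adjusted p = 0.0612) without day 7 replicate 3. Eci2 lost its call without any 1 day 3 library or any 1 other day 7 library (adjusted p 0.0725 to 0.152). The 1 fall with all libraries became 2 without day 7 replicate 4. The 7 falls became 3 without day 3 replicate 2 or day 7 replicate 1, 4 without day 7 replicate 2 or 5 and 16 without day 7 replicate 4.

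Cholesterol synthesis genes gave 0 rises and 3 falls among 26 in both fits, beside falls in 0.648% and 1.85% of all genes, respectively. Hsd17b7, which acts late in cholesterol synthesis (chr1:169949537-169969205, minus strand), was at 529, 595, 312, 347 and 337 CPM at day 3 and at 80.9, 133, 142, 144 and 147 CPM at day 7. Every day 7 library was below every day 3 library, and all 5 were below the highest sham library (167, 171 and 145 CPM). Hsd17b7 fell, with a log2 change of -1.71 ± 0.25 (adjusted p = 0.00631), and of -1.75 ± 0.27 (adjusted p = 0.00253) without day 7 replicate 3. Cyp51 and Nsdhl, which demethylate lanosterol and its products, changed by -0.87 ± 0.21 (adjusted p = 0.0493) and -0.89 ± 0.21 (adjusted p = 0.0486), with day 7 replicate 3 the lowest library for both. Sqle, squalene epoxidase, was at -0.61 ± 0.3 (adjusted p = 0.354) with all libraries and -0.47 ± 0.3 (adjusted p = 0.429) without day 7 replicate 3. Cyp51 and Nsdhl lost their calls without any 1 day 3 library or day 7 replicate 1, 2 or 4 (adjusted p 0.0591 to 0.163). Cyp51, with replicate 3 already out, lost its call without day 3 replicate 2, 3, 4 or 5 or day 7 replicate 1, 2 or 4 (adjusted p 0.0504 to 0.129). Nsdhl, with replicate 3 already out, lost its call without day 3 replicate 2 or day 7 replicate 1 (adjusted p 0.0536 to 0.0691). The 3 falls with all libraries became 1 without any 1 day 3 library or day 7 replicate 1, 2 or 4, and the 3 with replicate 3 out became 1 without day 3 replicate 2 or day 7 replicate 1, the remaining 1 being Hsd17b7.

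Several genes of stored fat and of fasting set day 7 replicate 3 apart from the other 4 day 7 livers. Cidec, which fuses lipid droplets (chr6:113424634-113435760, minus strand), was at 267, 146, 46.6, 77.8 and 60.9 CPM at day 3 and at 0.873, 2.61, 141, 0.66 and 1.92 CPM at day 7. Replicate 3 lay within the day 3 range, and the other 4 lay below all day 3 libraries and within or below the sham range (2.57, 15.5 and 4.01 CPM). Cidec was not called with all libraries, at -2.02 ± 1.21 (adjusted p = 0.478), and fell, at -6.28 ± 0.94 (adjusted p = 0.00216) without day 7 replicate 3. Fgf21, a hormone of fasting and of mitochondrial stress, was at 21.5, 21.9, 4.53, 6.88 and 16.4 CPM at day 3 and at 0.721, 1.12, 50.6, 0.0943 and 0.879 CPM at day 7. Replicate 3 was above all day 3 libraries, and the other 4 were below all of them. Fgf21 was not called with all libraries, at -0.42 ± 1.01 (adjusted p = 0.909), and fell, at -4.3 ± 0.58 (adjusted p = 0.00166) without day 7 replicate 3. Apoa4, a lipoprotein component that rises with liver fat (chr9:46240844-46243458, plus strand), was at 10786, 9218, 4583, 5970.3 and 5114 CPM at day 3 and at 260.4, 772, 5686, 163 and 525 CPM at day 7. Replicate 3 lay within the day 3 range and the other 4 far below it, though still above sham (92.4, 95.3 and 69.4 CPM). Apoa4 was not called with all libraries, at -2.27 ± 0.73 (adjusted p = 0.144), and fell, at -4.05 ± 0.48 (adjusted p = 0.000887) without day 7 replicate 3.

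Plin2, the main coat protein of hepatocyte lipid droplets, was at 1989.8, 1446, 752, 1006 and 954 CPM at day 3 and at 223, 269.5, 2121, 313 and 262 CPM at day 7. Replicate 3 exceeded all day 3 libraries and the other 4 lay below them and below sham (383, 407 and 517 CPM). Plin2 was not called with all libraries, at -0.95 ± 0.61 (adjusted p = 0.523), and fell, at -2.2 ± 0.45 (adjusted p = 0.0123) without day 7 replicate 3. Igfbp1, an insulin-repressed binding protein of growth factors, was at 1009, 801, 345, 433 and 264 CPM at day 3 and at 28, 75, 391, 40.5 and 109.9 CPM at day 7. The 4 other libraries were below all of day 3, while replicate 3 was within the range. Igfbp1 was not called with all libraries, at -2.15 ± 0.75 (adjusted p = 0.179), and fell, at -3.17 ± 0.72 (adjusted p = 0.0199) without day 7 replicate 3. Mfsd2a, a lysophospholipid transporter raised in fasting, was at 643, 651, 249.6, 295 and 302 CPM at day 3 and at 8.09, 92.5, 325, 27.9 and 58.4 CPM at day 7. Its pattern over libraries was that of Igfbp1. Mfsd2a was not called with all libraries, at -2.07 ± 0.76 (adjusted p = 0.205), and fell, at -3.19 ± 0.72 (adjusted p = 0.0194) without day 7 replicate 3.

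Angptl4, an inhibitor of lipoprotein lipase raised in fasting, was at 124, 102, 93.2, 97.1 and 101 CPM at day 3 and at 10.5, 43, 145, 35.9 and 21.1 CPM at day 7. Replicate 3 was the highest of all 10 libraries and the other 4 were the lowest. Angptl4 was not called with all libraries, at -1.02 ± 0.56 (adjusted p = 0.424), and fell, at -1.9 ± 0.47 (adjusted p = 0.0301) without day 7 replicate 3. Inhbb, which encodes a chain of activin B, was at 30.3, 61, 30.3, 34.1 and 31.1 CPM at day 3 and at 8.73, 9.15, 30.4, 2.74 and 8.73 CPM at day 7. Replicate 3 lay at the lower edge of day 3 and the other 4 below it. Inhbb was not called with all libraries, at -1.65 ± 0.49 (adjusted p = 0.111), and fell, at -2.34 ± 0.42 (adjusted p = 0.00621) without day 7 replicate 3. Apoa5, a regulator of triglyceride clearance, fell in both fits (-1.0 ± 0.24 (adjusted p = 0.0486) with all libraries), replicate 3 being the highest of the day 7 libraries. Mup7, a major urinary protein driven by growth hormone in males, was at 172, 115, 76.9, 103 and 43.3 CPM at day 3 and at 1.48, 5.5, 390.3, 34.8 and 8.24 CPM at day 7. Replicate 3 was above all day 3 libraries and the other 4 below them all. Mup7 was not called with all libraries, at -0.21 ± 0.97 (adjusted p = 0.959), and fell, at -3.03 ± 0.71 (adjusted p = 0.0228) without day 7 replicate 3. Mup genes are near-identical copies, so its own level is uncertain. Outside the lists, Nlrp12, a receptor of the NOD family, was at 89.9, 95, 58.3, 68.4 and 47.4 CPM at day 3 and at 3, 17.2, 61.4, 5.42 and 8.7 CPM at day 7. Replicate 3 lay within the day 3 range and the other 4 below it. Nlrp12 was not called with all libraries, at -1.91 ± 0.65 (adjusted p = 0.168), and fell, at -3.06 ± 0.54 (adjusted p = 0.00575) without day 7 replicate 3. Dlgap2, a scaffold protein known from synapses, and Npnt, the matrix protein nephronectin, showed the same order and were called only without replicate 3, at -5.01 ± 0.75 (adjusted p = 0.00216) and -3.96 ± 0.93 (adjusted p = 0.0232). Apoa5 lost its call without any 1 day 3 library or any 1 other day 7 library (adjusted p 0.0726 to 0.166). Npnt, with replicate 3 already out, lost its call without day 3 replicate 1 or 2 or day 7 replicate 1 or 4 (adjusted p 0.0511 to 0.0732). Igfbp1 and Mfsd2a, with replicate 3 already out, lost their calls without day 3 replicate 2 or day 7 replicate 1 or 4 (adjusted p 0.0535 to 0.08). Angptl4, with replicate 3 already out, lost its call without day 3 replicate 1, 2, 3 or 4 or day 7 replicate 1, 4 or 5 (adjusted p 0.0508 to 0.0937). Mup7, with replicate 3 already out, lost its call without day 3 replicate 2 or day 7 replicate 1, 2 or 5 (adjusted p 0.0505 to 0.0596).

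**Figure D4:**
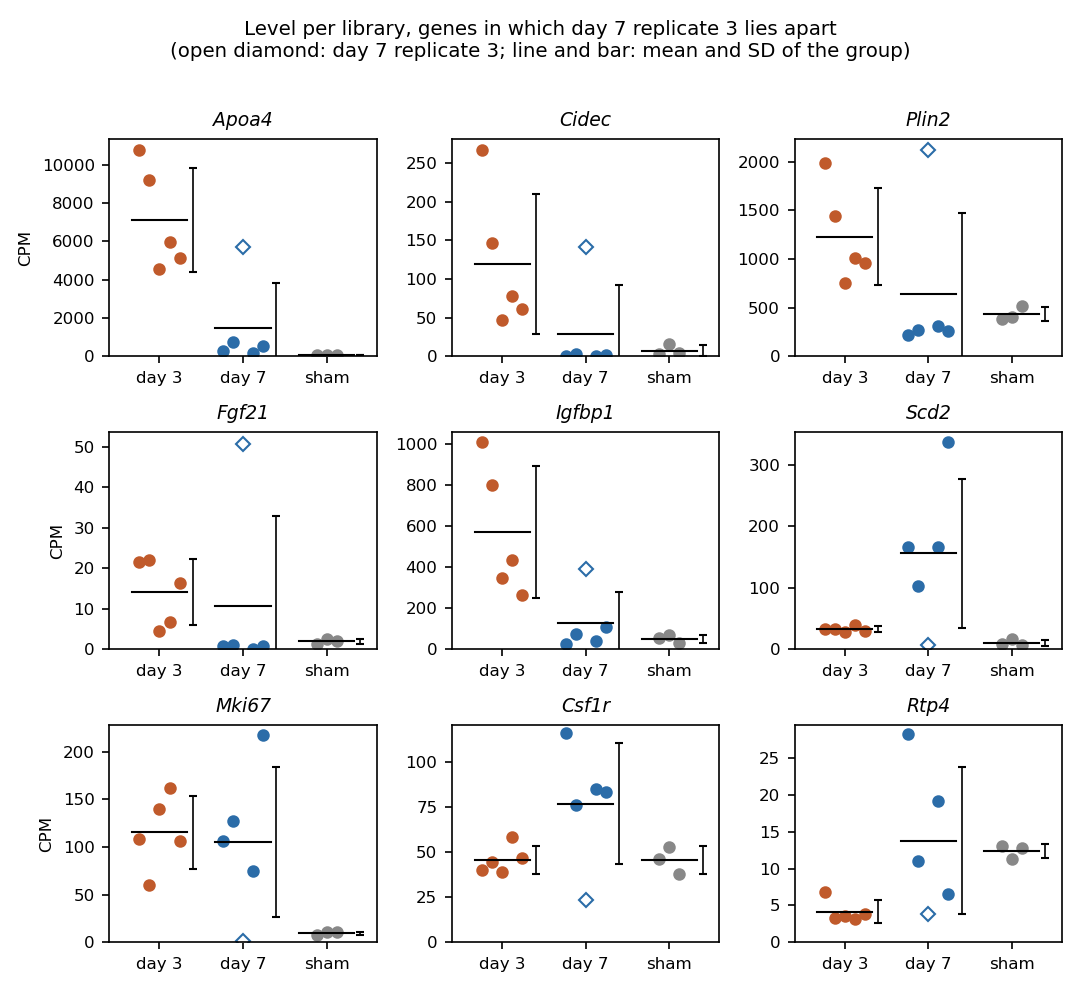
CPM (TMM-scaled) of 9 genes for which day 7 replicate 3, the open diamond, stood apart from the other day 7 livers, one panel each. Each point is a library of the sham, day 3 or day 7 group, and lines and bars give mean and SD, cut off at 0. For Apoa4, Cidec, Plin2, Fgf21 and Igfbp1 replicate 3 lies at or above the day 3 level, and for Scd2, Mki67, Csf1r and Rtp4 at or below it.

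Several of these genes belong to the secreted factors listed for muscle wasting. Of 36 such hepatokines and humoral factors tested (37 listed), 0 were called with all libraries and 1 rose and 5 fell without replicate 3. In the latter fit 2.66% of all genes rose and 1.85% fell, and with all libraries 0.612% rose. The 5 were Fgf21, Igfbp1, Igfbp3, Inhbb and Angptl4. They became 2 without day 7 replicate 1 and 3 without day 3 replicate 2 or day 7 replicate 4. Glucocorticoid receptor targets, which rise under stress hormones, gave 1 rise among 24 with all libraries, and 2 rises and 3 falls without replicate 3, with a median of -0.68 with all libraries and -0.82 without day 7 replicate 3. These counts did not last when 1 further library was left out, at 0 to 1 rises and 0 to 3 falls.

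Fetal and progenitor genes did not move as 1 group. Of 18 tested (22 listed), 2 rose and 2 fell with all libraries, and 4 rose and 2 fell without replicate 3. Among all genes, 0.612% rose and 0.648% fell with all libraries, and 2.66% and 1.85% without replicate 3. Leaving out any 1 of the other 9 libraries left 0 of the 2 rises and 1 of the 2 falls, that of Afp. Afp, alpha-fetoprotein, the albumin-like plasma protein of the fetal liver (chr5:90490714-90508907, plus strand), was at 84, 31.2, 38, 30.4 and 59.3 CPM at day 3 and at 4.02, 9.87, 10.6, 2.31 and 16.3 CPM at day 7. All day 7 libraries were below all day 3 libraries and above sham (0.714, 1.04 and 0.561 CPM). Afp fell, with a log2 change of -2.49 ± 0.45 (adjusted p = 0.0167), and of -2.57 ± 0.5 (adjusted p = 0.00881) without day 7 replicate 3. Cd24a, a surface glycoprotein of progenitor cells, fell by 1.53 ± 0.35 (adjusted p = 0.0401) with all libraries, without overlap. H19, an imprinted noncoding RNA of fetal liver (chr7:142575530-142578146, minus strand), went the other way, at 0.292, 0.412, 0.968, 0.229 and 2.91 CPM at day 3 and at 22.3, 43.8, 0, 13.4 and 34.2 CPM at day 7. Replicate 3 held 0 CPM, and the other 4 lay above all day 3 libraries. H19 rose by 4.55 ± 1.09 (adjusted p = 0.0493), and by 4.87 ± 0.8 (adjusted p = 0.00344) without day 7 replicate 3.

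Igf2, the imprinted fetal growth factor gene beside H19, was at 0.793, 0.258, 0.194, 0.642 and 0.997 CPM at day 3 and at 1.25, 2.29, 0.312, 3.35 and 6.03 CPM at day 7. These are levels of a few CPM, with replicate 3 inside the day 3 range and the other 4 above it. Igf2 was not called with all libraries, at 2.19 ± 0.63 (adjusted p = 0.0978), and rose by 2.47 ± 0.54 (adjusted p = 0.0161) without day 7 replicate 3. Prom1, a surface protein of progenitor and bile duct cells, was at 2.09, 1.29, 2.71, 1.93 and 2.69 CPM at day 3 and at 18.5, 34.7, 0.491, 8.96 and 45.1 CPM at day 7. Replicate 3 was below day 3 and the other 4 above it. Prom1 rose by 3.33 ± 0.75 (adjusted p = 0.0374), and by 3.64 ± 0.52 (adjusted p = 0.00198) without day 7 replicate 3. Peg3, an imprinted zinc finger gene, fell (-1.91 ± 0.43 (adjusted p = 0.0374)), and Cyp21a1, a steroid 21-hydroxylase, fell by 3.28 on the log2 scale with all libraries (adjusted p = 0.0167) and without overlap, though a near-identical pseudogene can share its reads. Fam83a fell by 1.96 on the log2 scale with all libraries (adjusted p = 0.0269), also without overlap. Cd24a, H19 and Prom1 lost their calls without any 1 day 3 library or any 1 other day 7 library (adjusted p 0.0527 to 0.16). Peg3 lost its call without day 3 replicate 1, 2, 3 or 4 or any 1 other day 7 library (adjusted p 0.0548 to 0.128). Cyp21a1 lost its call without day 7 replicate 1 (adjusted p = 0.0507). Fam83a lost its call without day 3 replicate 2, 3 or 4 or day 7 replicate 1, 2 or 4 (adjusted p 0.0536 to 0.0821). Cd24a, with replicate 3 already out, lost its call without day 3 replicate 1, 3, 4 or 5 or any 1 other day 7 library (adjusted p 0.0575 to 0.103). Igf2, with replicate 3 already out, lost its call without day 3 replicate 2 (adjusted p = 0.0535). Peg3, with replicate 3 already out, lost its call without day 3 replicate 1 or 2 or day 7 replicate 1, 4 or 5 (adjusted p 0.0566 to 0.111).

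Hamp2, a relative of the iron hormone hepcidin, had the highest rise of the named genes without replicate 3. It was at 0.793, 0.0515, 0.116, 0 and 0.173 CPM at day 3 and at 2.16, 4.97, 0.312, 54.6 and 16.1 CPM at day 7. Replicate 3 lay among the day 3 libraries, and replicate 4 was far above all others. Hamp2 rose by 6.03 ± 1.33 (adjusted p = 0.0354), and by 6.35 ± 1.19 (adjusted p = 0.00769) without day 7 replicate 3. Hamp2 and Hamp are near-identical, so reads can be shared, and day 3 levels under 1 CPM rest on few reads. Col4a3, a basement membrane collagen, was at 1.21, 1.08, 0.348, 0.871 and 0.434 CPM at day 3 and at 3.57, 14.9, 0.669, 4.29 and 6.81 CPM at day 7. Replicate 3 fell within day 3. Col4a3 rose by 2.94 ± 0.63 (adjusted p = 0.0329), and by 3.23 ± 0.51 (adjusted p = 0.00318) without day 7 replicate 3. Hamp2 and Col4a3 lost their calls without day 3 replicate 2, 3, 4 or 5 or day 7 replicate 1, 2 or 4 (adjusted p 0.0506 to 0.12).

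Interferon response genes were highest in day 7 replicates 1 and 4. As the median over the list of log2(CPM + 0.5) minus the day 3 mean, replicates 1 to 5 of day 7 stood at 1.94, 0.91, -0.22, 1.63 and 0.21, those of day 3 at 0.70, -0.27, -0.23, -0.19 and 0.02, and sham at 0.77, 0.89 and 0.76. Day 3 replicate 1 thus lay above day 7 replicates 3 and 5. All 37 listed genes were tested and had a positive log2 change in both fits, with 2 rises and 0 falls with all libraries, 14 rises and 0 falls without replicate 3, and a median of 1.1 with all libraries and 1.25 without day 7 replicate 3. Rises over all genes were 0.612% and 2.66% in these fits, respectively. Ifi44, an interferon-induced cytoskeletal protein, was at 2.09, 0.773, 0.813, 0.871 and 1.08 CPM at day 3 and at 28, 6.82, 0.847, 13.6 and 2.28 CPM at day 7. Replicates 1 and 4 were highest, replicates 2 and 5 lower but above day 3, and replicate 3 within day 3. Ifi44 rose by 3.18 ± 0.69 (adjusted p = 0.0345), and by 3.48 ± 0.57 (adjusted p = 0.00344) without day 7 replicate 3. Rtp4, a chaperone induced by interferon, was at 6.85, 3.35, 3.64, 3.12 and 3.9 CPM at day 3 and at 28.2, 11, 3.79, 19.1 and 6.55 CPM at day 7. Replicates 1 and 4 again led, replicate 3 lay within day 3, and replicate 5 just below the highest day 3 library. Rtp4 rose by 1.72 ± 0.41 (adjusted p = 0.0498), and by 1.96 ± 0.35 (adjusted p = 0.00607) without day 7 replicate 3. Oasl2, of the oligoadenylate synthetase family that senses viral RNA, was at 4.93, 4.48, 3.75, 4.77 and 4.12 CPM at day 3 and at 42.9, 9.75, 3.08, 16.8 and 6.03 CPM at day 7. Replicate 1 stood alone at the top. Oasl2 was not called with all libraries, at 1.83 ± 0.51 (adjusted p = 0.0883), and rose by 2.1 ± 0.44 (adjusted p = 0.013) without day 7 replicate 3.

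Mx1, an antiviral GTPase, was called without replicate 3 (3.34 ± 0.74 (adjusted p = 0.0173)), as was Bst2, which tethers budding viruses to the cell (1.58 ± 0.34 (adjusted p = 0.0155)). Ifit3b, which shares reads with its copy Ifit3, was at 0.668, 0.412, 0.426, 0.55 and 0.737 CPM at day 3 and at 7.1, 1.72, 0.401, 6.7 and 0.945 CPM at day 7. Replicates 1 and 4 were highest. Ifit3b was not called with all libraries, at 2.58 ± 0.69 (adjusted p = 0.0787), and rose by 2.87 ± 0.61 (adjusted p = 0.0147) without day 7 replicate 3. Trim30a, a ubiquitin ligase with close copies, was not called with all libraries, at 1.3 ± 0.4 (adjusted p = 0.121), and rose by 1.54 ± 0.33 (adjusted p = 0.0137) without day 7 replicate 3. Ifi44 and Rtp4 lost their calls without day 3 replicate 2, 3, 4 or 5 or day 7 replicate 1, 2 or 4 (adjusted p 0.0506 to 0.167). Mx1, with replicate 3 already out, lost its call without day 3 replicate 2 or day 7 replicate 1 (adjusted p 0.0553 to 0.0919). Bst2, with replicate 3 already out, lost its call without day 3 replicate 2 or day 7 replicate 1 or 4 (adjusted p 0.0533 to 0.0646). Oasl2, Ifit3b and Trim30a, with replicate 3 already out, lost their calls without day 7 replicate 1 (adjusted p 0.062 to 0.0625). With day 7 replicate 1 also out, Oasl2 was at 1.29. Without replicate 3 the 14 rises became 2 without day 7 replicate 1, 5 without day 3 replicate 2, 6 without day 7 replicate 4, and 7 without day 3 replicate 3 or 4. With all libraries the 2 became 0 without day 3 replicate 2, 3 or 4 or day 7 replicate 1, 2 or 4, 1 without day 3 replicate 5 and 4 without day 7 replicate 5.

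Interferon promoters were searched because all listed interferon genes had a change of the same sign. Bst2 and Ifit3b are shown as members called without replicate 3 whose windows hold the letters searched for. The windows of Ifi44 and Oasl2, which had smaller p in that fit, hold 0 copies. The promoters shown span chr8:71537423-71537722 (minus strand) and chr19:34607707-34608006 (plus strand) and are read as above. Capitals mark GAAA, any 2 bases and GAAA again, on either strand, the core letters of the interferon-stimulated response element, which was chosen after the values were seen.
Bst2: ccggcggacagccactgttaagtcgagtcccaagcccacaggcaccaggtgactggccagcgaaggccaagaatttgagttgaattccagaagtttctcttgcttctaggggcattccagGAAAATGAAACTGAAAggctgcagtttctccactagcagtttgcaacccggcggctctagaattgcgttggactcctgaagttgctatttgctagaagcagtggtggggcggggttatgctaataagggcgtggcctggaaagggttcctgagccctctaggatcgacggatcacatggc
Ifit3b: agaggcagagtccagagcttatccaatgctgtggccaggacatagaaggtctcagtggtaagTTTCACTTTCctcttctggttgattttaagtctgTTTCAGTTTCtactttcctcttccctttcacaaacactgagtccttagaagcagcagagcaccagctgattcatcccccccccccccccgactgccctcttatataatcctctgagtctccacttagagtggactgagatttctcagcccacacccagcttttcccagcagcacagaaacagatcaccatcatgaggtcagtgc
Bst2 holds 2 overlapping copies, 130 and 124 bases before the RefSeq start, and Ifit3b 2 copies on the opposite strand, 188 and 154 bases before it. The letters were found in 18 of 26 interferon genes with a window (69.2%) and in 394 of all 10469 tested genes with a window (3.76%). They were in 7 of the 10 members called without replicate 3 and in 11 of the 16 not called.

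Antigen presentation genes gave 0 calls with all libraries and 2 rises among 18 without replicate 3, Ciita, the master regulator of MHC class II genes (2.12 ± 0.46 (adjusted p = 0.0155)), and Psmb10, a subunit of the immunoproteasome (0.83 ± 0.2 (adjusted p = 0.03)). Ciita was at 0.501, 0.464, 0.813, 0.504 and 0.911 CPM at day 3 and at 5.35, 2.01, 0.714, 3.3 and 0.586 CPM at day 7. Replicates 1, 2 and 4 were above all day 3 libraries, replicates 3 and 5 within them. Ciita, with replicate 3 already out, lost its call without day 3 replicate 2 or day 7 replicate 1 (adjusted p 0.0514 to 0.0818). Psmb10, with replicate 3 already out, lost its call without day 3 replicate 2, 3, 4 or 5 or day 7 replicate 1 or 2 (adjusted p 0.0528 to 0.111). Lymphocyte markers gave 0 calls in both fits. Of the 22 listed, the deposited table holds 5, and 4 were tested.

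Some macrophage markers were higher in the day 7 livers other than replicate 3. Without that library, 2.66% of all genes rose and 1.85% fell. Of 27 markers of monocytes and lipid-associated macrophages, 1 rose with all libraries (Lpl), and 5 rose and 1 fell (Plin2) without replicate 3. Among 18 markers of Kupffer cells, the resident macrophages of the liver, 0 were called with all libraries, and 4 rose and 1 fell without replicate 3. Csf1r, the receptor of the macrophage growth factor, was at 39.8, 44.4, 39.1, 58.2 and 46.8 CPM at day 3 and at 116, 76, 23.6, 85.1 and 83.3 CPM at day 7. Replicate 3 was below all day 3 libraries and the other 4 above them. Csf1r was not called with all libraries, at 0.75 ± 0.28 (adjusted p = 0.211), and rose by 0.98 ± 0.18 (adjusted p = 0.00615) without day 7 replicate 3. Lyz2, lysozyme of phagocytes, was at 40.7, 48.1, 60.8, 69.1 and 78.4 CPM at day 3 and at 195, 161, 18.1, 87 and 233 CPM at day 7. The same order held, with replicate 3 lowest of all. Lyz2 was not called with all libraries, at 1.22 ± 0.44 (adjusted p = 0.197), and rose by 1.51 ± 0.29 (adjusted p = 0.00894) without day 7 replicate 3. Cd5l, a protein secreted by Kupffer cells, was at 23.1, 32.2, 24.7, 47 and 22.7 CPM at day 3 and at 85.2, 67.9, 17.4, 71.7 and 62.9 CPM at day 7. Replicate 3 again lay below the day 3 libraries. Cd5l was not called with all libraries, at 1.03 ± 0.34 (adjusted p = 0.156), and rose by 1.26 ± 0.26 (adjusted p = 0.0126) without day 7 replicate 3.

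Timd4 and Adgre1, surface proteins of resident macrophages, were called higher without replicate 3, at 0.77 ± 0.21 (adjusted p = 0.0487) and 1.03 ± 0.26 (adjusted p = 0.0301), and Itgax, an integrin of dendritic cells and fat-laden macrophages, at 2.09 ± 0.48 (adjusted p = 0.021). Clec4f, the lectin that marks Kupffer cells, was not called, at 0.57 ± 0.23 (adjusted p = 0.241) with all libraries and 0.71 ± 0.21 (adjusted p = 0.068) without day 7 replicate 3. Cd163, a haemoglobin receptor of macrophages, was at 42.7, 68.6, 44.8, 76 and 39.7 CPM at day 3 and at 14.5, 27.2, 32.4, 25.1 and 41.9 CPM at day 7. It went the other way from its list, with replicates 1, 2, 3 and 4 of day 7 below all day 3 libraries. Cd163 was not called with all libraries, at -0.95 ± 0.25 (adjusted p = 0.0792), and fell, at -1.0 ± 0.28 (adjusted p = 0.0489) without day 7 replicate 3. Gpnmb and Trem2, of lipid-associated macrophages, were not called. Gpnmb was at 24, 23.5, 42, 51.2 and 43.4 CPM at day 3 and at 54.6, 113, 3.39, 13.1 and 186 CPM at day 7. Replicates 1, 2 and 5 lay above day 3 and replicates 3 and 4 below it. Cd5l, with replicate 3 already out, lost its call without day 7 replicate 1 (adjusted p = 0.0514). Timd4, with replicate 3 already out, lost its call without day 3 replicate 1, 2, 3 or 5 or day 7 replicate 1, 2 or 4 (adjusted p 0.0895 to 0.133). Adgre1, with replicate 3 already out, lost its call without day 3 replicate 1, 2, 3 or 5 or day 7 replicate 1 or 4 (adjusted p 0.057 to 0.122). Itgax, with replicate 3 already out, lost its call without day 3 replicate 1 or 2 or day 7 replicate 1 (adjusted p 0.0534 to 0.121). Cd163, with replicate 3 already out, lost its call without day 3 replicate 1, 2, 3 or 4 or day 7 replicate 1, 2 or 4 (adjusted p 0.0554 to 0.147). The 4 rises of Kupffer markers became 0 without day 7 replicate 1, 1 without day 3 replicate 2 or day 7 replicate 4, and 2 without day 3 replicate 1, 3 or 5. The 5 rises of the other list became 3 without day 3 replicate 2 or day 7 replicate 1.

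**Figure D5:**
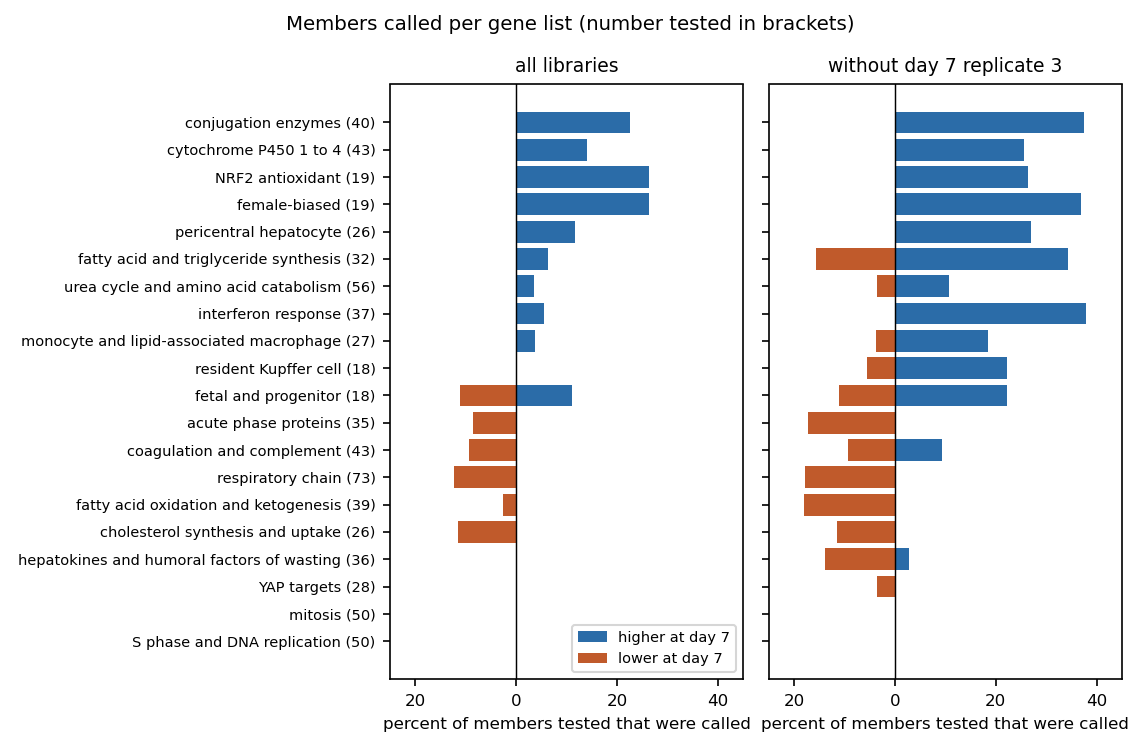
Share of the tested members of each gene list that were called higher (right) or lower (left) at day 7, in percent, with all libraries and without day 7 replicate 3. Conjugation enzymes have 9 and 15 of 40 called higher and interferon genes 2 and 14 of 37, while division lists have 0.

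Division genes were called in neither fit. Of 50 mitosis and 50 S phase genes, 0 were called with all libraries or without replicate 3 (edgeR), and at an unadjusted p under 0.05 there was 1 of each list in each fit. Medians were -0.41 with all libraries and -0.11 without day 7 replicate 3 for mitosis and -0.42 with all libraries and -0.21 without day 7 replicate 3 for S phase. Mki67, the marker of cycling cells, was at 109, 60.6, 139.6, 162 and 107 CPM at day 3 and at 106, 128, 1.43, 74.7 and 218 CPM at day 7. Replicate 3 was below every sham library (7.67, 10.6 and 10.4 CPM), and the other 4 day 7 libraries overlapped day 3. Its change was -0.13 ± 0.71 (adjusted p = 0.965) with all libraries and 0.18 ± 0.47 (adjusted p = 0.888) without day 7 replicate 3. Ccnb1, the mitotic cyclin, was at 24.5, 11.5, 17.8, 22.7 and 16.9 CPM at day 3 and at 10.1, 18.1, 0.178, 6.79 and 20.2 CPM at day 7. Replicate 3 again lay below sham. Ccnd1, the cyclin that starts the cycle, and Cdkn1a, the inhibitor p21, were not called either. Cdkn1a was at 65.5, 47, 65.1, 64.7 and 51 CPM at day 3 and at 26.2, 51.9, 162, 11.1 and 69.5 CPM at day 7. Here replicate 3 was the highest of all 10 libraries. Over the 50 mitosis genes, the sum was 458 to 1173 CPM at day 3 and 69.2 to 1312 CPM at day 7, with 111 to 124 CPM in sham, and replicate 3 had the lowest value.

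Genes of the YAP pathway, to which the series' title refers, gave few calls. Of 28 YAP targets tested (29 listed), 0 were called with all libraries and 1 fell without replicate 3, with a median of 0.06 with all libraries and 0.02 without day 7 replicate 3. Without replicate 3, 1.85% of all genes fell. Yap1 was at 96.1, 86.3, 81.6, 78.5 and 86.7 CPM at day 3 and at 60.6, 63.3, 105, 64.1 and 68.2 CPM at day 7. Replicate 3 was the highest of all 10 libraries and the other 4 were the lowest. The change was -0.25 ± 0.15 (adjusted p = 0.482) with all libraries and -0.42 ± 0.12 (adjusted p = 0.0585) without day 7 replicate 3. Wwtr1, which encodes the related co-activator TAZ, was at -0.08 ± 0.16 (adjusted p = 0.882) with all libraries and -0.07 ± 0.17 (adjusted p = 0.886) without day 7 replicate 3. Ctgf and Cyr61, the classic secreted targets, were at -0.64 ± 0.43 (adjusted p = 0.543) with all libraries and -0.79 ± 0.46 (adjusted p = 0.384) without day 7 replicate 3 and at 0.84 ± 0.67 (adjusted p = 0.625) with all libraries and 0.57 ± 0.7 (adjusted p = 0.73) without day 7 replicate 3. Igfbp3, the target that fell, binds insulin-like growth factors and was at 106, 53, 47.1, 67.8 and 28.6 CPM at day 3 and at 12.2, 6.14, 26.6, 19.9 and 16.8 CPM at day 7. Day 7 lay wholly below day 3, replicate 3 by the least. Igfbp3 was not called with all libraries, at -1.89 ± 0.46 (adjusted p = 0.0525), and fell, at -2.13 ± 0.49 (adjusted p = 0.021) without day 7 replicate 3. Igfbp3, with replicate 3 already out, lost its call without day 7 replicate 1 or 2 (adjusted p 0.0544 to 0.0788).

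Other cell types of the liver gave few calls. Of 22 markers of stellate cells and fibroblasts, 0 were called with all libraries and 1 fell without replicate 3, Pdgfra, a growth factor receptor of these cells (-0.95 ± 0.25 (adjusted p = 0.0421)). Col1a1, fibrillar collagen, was at 103, 178, 82.6, 141 and 139.6 CPM at day 3 and at 302, 103, 19.8, 76.2 and 94.5 CPM at day 7. The groups overlapped, and all but replicate 3 were several-fold above sham (12.4, 7.33 and 6.05 CPM). Its change was -0.11 ± 0.56 (adjusted p = 0.963) with all libraries and 0.16 ± 0.51 (adjusted p = 0.914) without day 7 replicate 3. Of 41 collagens and matrix proteins, 1 rose (Col4a3) and 1 fell (Fn1) in both fits. Without replicate 3, 2.66% of all genes rose and 1.85% fell, so these calls do not set the list apart. Endothelial markers (28) gave 0 calls in both fits, and cholangiocyte markers (14 tested) 1 rise in both, Prom1. Hgf, the growth factor of stellate and endothelial cells that drives hepatocyte division, was at -0.5 ± 0.18 (adjusted p = 0.197) with all libraries and -0.52 ± 0.19 (adjusted p = 0.143) without day 7 replicate 3. Pdgfra, with replicate 3 already out, lost its call without day 3 replicate 1, 2, 4 or 5 or day 7 replicate 1, 2 or 4 (adjusted p 0.0624 to 0.124).

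Genes higher in female than in male liver gave several rises. Rises over all genes were 0.612% with all libraries and 2.66% without replicate 3. Of 19 tested (30 listed), 5 rose with all libraries and 7 without replicate 3, with 0 falls in both and a median of 1.14 with all libraries and 1.41 without day 7 replicate 3. By the median over the list of log2(CPM + 0.5) minus the day 3 mean, day 7 stood at -0.04, 1.34, -0.41, 1.56 and 1.42 in replicates 1 to 5 and day 3 at 0.29, -0.09, -0.04, -0.27 and 0.12. Day 7 replicates 2, 4 and 5 were high, replicate 1 lay within the day 3 range and replicate 3 below it. Hamp2, Prom1 and Lpl, described above, are among the 5. Without 1 further library, the 5 became 0 to 2 for each of the other 9 libraries. Of 38 male-biased genes that depend on growth hormone (40 listed), 0 were called with all libraries, and 1 rose and 3, all Mup genes, fell without replicate 3. The 1 rise became 0 without day 3 replicate 2, 3, 4 or 5 or day 7 replicate 1 or 4, 3 without day 3 replicate 1 or day 7 replicate 2 and 4 without day 7 replicate 5, and the 3 falls became 0 without day 7 replicate 1, 1 without day 3 replicate 2 or day 7 replicate 2 or 5 and 5 without day 7 replicate 4. Ghr, the growth hormone receptor, was at 186, 151, 172, 132 and 216 CPM at day 3 and at 293, 191, 117, 689 and 198 CPM at day 7. Replicate 4 stood above the other day 7 libraries, and all 10 were below sham (979.8, 970.1 and 1019.7 CPM). Its change was 0.79 ± 0.4 (adjusted p = 0.373) with all libraries and 1.0 ± 0.38 (adjusted p = 0.147) without day 7 replicate 3.

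Cytosolic ribosomal proteins (72 tested) gave 0 calls with all libraries and 1 fall without replicate 3, where 1.85% of all genes fell. The lists of ribosome biogenesis, proteasome, p53 targets, the unfolded protein response, TGF-beta, NF-kB, AP-1, aminoacyl-tRNA synthetases and cytoskeletal genes gave 0 calls in both fits. Alb, albumin, was at 56656, 41676, 57671, 44412 and 49720.2 CPM at day 3 and at 60473, 92319, 44105, 73479 and 92778 CPM at day 7. The groups overlapped, with replicate 3 the lowest day 7 library. Its change was 0.54 ± 0.25 (adjusted p = 0.332) with all libraries and 0.67 ± 0.24 (adjusted p = 0.12) without day 7 replicate 3. Hnf4a, the master regulator of hepatocyte identity, was at -0.3 ± 0.16 (adjusted p = 0.401) with all libraries and -0.35 ± 0.16 (adjusted p = 0.25) without day 7 replicate 3.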

How the data were processed

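Total RNA from frozen bulk liver (QIAzol, column clean-up, DNaseI, KAPA total RNA kit, per the labels' protocols) was sequenced. The authors deposited unnormalized read counts per gene on mouse build mm10, and the submitters' processing notes name FastQC 0.11.5, STAR 2.7.10a, featureCounts, Subread 2.0.3 and edgeR 3.40.2. Strand setting, treatment of shared reads and any filter before deposit are not given in the sources used here. The table holds 14702 genes, and 54 per-sample columns in it went unused here.

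From these counts, edgeR 4.0.16 (R 4.3.3) fitted 18 liver libraries (3 sham, 5 each of days 1, 3 and 7) by group, with filterByExpr (13879 genes kept), TMM and robust quasi-likelihood, and tested day 7 against day 3 two-sided with Benjamini-Hochberg adjustment at 0.05. A second fit left out day 7 replicate 3 and kept the same genes. CPM use TMM-scaled library sizes. SE is the log2 change divided by the root of F. The scripts were tested on simulated data. Day 3 and day 7 libraries of equal number did not deviate together, so no pairing was used. Among 20 pairs of libraries within a group, the lowest mean chi-square per gene was 17.4 where sampling noise gives 1, so none was a duplicate.

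The samples, the 57 gene lists (from general knowledge) and the tests were chosen with earlier results of these data known. Named genes are the 10 largest rises and falls of either fit among called genes of at least 5 CPM without overlap between groups, up to 5 members of smallest p per list and fit, and a fixed set, called or not. Some are not reported here. Promoters are from RefSeq, GRCm38.p6, with 10469 of 13879 tested genes matched by symbol. Alternatives were DESeq2 size factors, no filter, DESeq2 1.42.0, other sample sets, no robust estimation, a replicate block and leaving out each library.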

Additional observations from a re-analysis of the deposited data

Results flagged for a closer look

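In 41 of 252 groups of 5 libraries, over the 126 genes named in the text, the highest or lowest library lay farther from the rest than Dixon's test allows at 95%. Chance flags about 1 group in 20. Values are CPM. Replicate 3 of day 7 gave 16 of the 41 and day 3 replicate 1 gave 10. Several of the 126 genes were named by the fit without day 7 replicate 3, under a rule that disregarded that library. The flags of replicate 3 therefore cannot be set against the rate by chance and are a description only. Causes were not tested. Day 7 replicate 3 lay above the other libraries of its day in Serpina3k (7218), Saa1 (342), Cycs (153), Apoa4 (5686), Cidec (141), Plin2 (2121), Fgf21 (50.6), Igfbp1 (391) and Mfsd2a (325). It was likewise highest in Angptl4 (145), Inhbb (30.4), Mup7 (390), Yap1 (105), Dlgap2 (8.96), Npnt (14.1) and Nlrp12 (61.4).

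Day 3 replicate 1 lay above the other libraries of its day in Gsta2 (9.52), Cyp1a2 (114), Scd1 (1815), Srebf1 (100), Cyp7a1 (146), Cyp21a1 (68.4), Hamp2 (0.793) and Ifi44 (2.09). It was likewise highest in Rtp4 (6.85) and Psmb10 (15.7). Day 3 replicate 2 lay above the other libraries of its day in Stat3 (348), Apoa5 (1609) and Inhbb (61.0). Day 3 replicate 4 lay above the other libraries of its day in Trim30a (8.9).

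Day 3 replicate 5 lay above the other libraries of its day in H19 (2.91). It lay lowest in Cycs (112). Day 7 replicate 1 lay below the other libraries of its day in Asl (98.4), Nnmt (23.5), Uqcrh (33.1) and Hsd17b7 (80.9). Day 7 replicate 4 lay above the other libraries of its day in Cyp2c54 (352), Cyp3a11 (9415), Cyp2e1 (5170) and Glul (683). Day 7 replicate 5 lay above the other libraries of its day in Ccnd1 (445).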

How the results depend on the processing

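With all libraries (175 genes called, 85 higher and 90 lower), DESeq2 called 583 (314 and 269) and the libraries after PHx without sham 31 (17 and 14). Counts stayed within 1.5 times under DESeq2 size factors (173), no filter (155), no robust estimation (175) and the day 3 and day 7 libraries alone (141). Of the 175, these kept 172, 153, 174 and 87, so the last changed many of the genes called. Without day 7 replicate 3 (626 called, 369 higher and 257 lower), DESeq2 called 1251 (676 and 575), the libraries after PHx alone 361 (213 and 148) and the day 3 and day 7 libraries alone 1436 (772 and 664), and DESeq2 size factors, no filter and no robust estimation 629, 616 and 626. The cause of these differences was not tested. Leaving out 1 library gave 17 to 626 genes (9 to 369 higher, 8 to 257 lower) with all libraries, and 230 to 635 (148 to 423 higher, 82 to 216 lower) with replicate 3 already out. No called gene changed sign under any of these alternatives.

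No pairing of the libraries by replicate number was seen, though a check on 5 pairs cannot exclude it. Deviations of same-numbered day 3 and day 7 libraries correlated at -0.333 to 0.057, 0 of 5 pairs were over 0.1, and 0 day 3 libraries correlated best with their own number. With the replicate number as a block, 82 genes were called (41 higher and 41 lower), and 352 (198 and 154) without day 7 replicate 3.

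Changes of sign occurred only in genes that were not called in the fit concerned. With the replicate block, Cdkn1a was -0.065 and, without replicate 3, Col1a1 -0.26. With 1 library left out, the log2 change ran from -0.35 to 0.46 for Cyp2e1, -3.03 to 0.13 for Mup7, -0.57 to 0.18 for Mki67, -0.56 to 0.40 for Cdkn1a and -0.81 to 0.16 for Col1a1. With replicate 3 already out, it ran from -0.36 to 0.64 for Cyp2e1, -0.17 to 0.38 for Mki67 and -0.50 to 0.37 for Col1a1. Depth limits the genes under 1 CPM, such as Hamp2, H19 and Igf2 at day 3, which rest on few reads.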
